A study of Mus musculus with 12 samples.

Results

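Antibody transcripts in TRAMP-C2 Ras prostate tumors are described here through 10 genes, which are the constant chains Ighm, Ighg1, Ighg2b, Ighg2c, Ighg3, Igha, Igkc, Iglc1 and Iglc2 and the joining chain gene Jchain. They were taken by name from the 55450 entries of the gene count table, with no use of their measured values. The table holds 12 libraries of RNA from subcutaneous tumors in male C57BL6 mice aged 8 to 10 weeks, 2 libraries for each of 6 groups. All mice received TC2R cells, a TRAMP-C2 line that carries an activated Ras, and a plasmid given into muscle by sonoporation on day 4. Their tumors were collected on day 26. The IL-27 group received a plasmid for untargeted IL-27, whose C-terminus carries a non-specific peptide, and the 27pepL group received a plasmid for IL-27 with peptide L, which binds the interleukin 6 receptor alpha. The IL-18 group was given recombinant IL-18 into the tumor on day 10, with the control plasmid as the methods read, and mice of 27→18 and of 27pepL→18 received that IL-18 after their IL-27 plasmid. The control group, pMCS, received the empty vector. Each library was pooled from 4 to 6 tumors, so 1 tumor with many antibody-producing cells can set the value of its pool, and the sources do not say whether the 2 pools of a group held different animals. P-values therefore measure the spread between these libraries, which may be technical.

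An antibody is built of paired heavy and light chains. A B cell joins a variable segment to a constant chain, first Ighm (IgM) together with Ighd (IgD), and after activation it can switch its heavy chain to one of the Ighg genes (IgG1, IgG2b, IgG2c, IgG3) or to Igha (IgA), while its light chain stays kappa (Igkc) or lambda (Iglc genes). Plasma cells secrete antibody and hold very large amounts of these transcripts, so a small number of cells can give most of the counts in a piece of tissue. The J chain links IgM pentamers and IgA dimers and is made by antibody-secreting cells. Each plasma cell clone uses 1 variable segment per chain, and the segments counted in a library are therefore a further readout of which cells were in the pool.

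The genes lie at 4 places of the mouse genome (GRCm38, GENCODE M21 annotation). The heavy chain genes stand in a row on the minus strand of chromosome 12, with Ighm at chr12:113418558-113422730 and Igha, the last in the row, at chr12:113254830-113260236. Igkc is at chr6:70726435-70726966, Iglc1 and Iglc2 are on chromosome 16 at chr16:19061618-19062071 and chr16:19198396-19200351, and Jchain is at chr5:88519809-88527891. Several of these genes resemble each other, which bears on how reads were divided between them. The first coding bases of the lambda constant genes are shown for that reason, each over 75 bases, with capitals at the bases that are not the same in all 3.
Iglc1: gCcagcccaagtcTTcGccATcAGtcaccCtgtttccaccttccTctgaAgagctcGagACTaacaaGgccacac
Iglc2: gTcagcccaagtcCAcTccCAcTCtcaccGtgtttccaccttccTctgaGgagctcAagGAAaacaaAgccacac
Iglc3: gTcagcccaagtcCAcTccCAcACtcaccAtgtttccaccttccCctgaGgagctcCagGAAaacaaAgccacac
Iglc2 and Iglc3 differed at 4 of these 75 bases and were 96.2% identical over their aligned coding sequence, whereas Iglc1 was 73.4% identical to Iglc2. A short read from Iglc2 can thus be given to Iglc3 and the reverse, and the counts of this pair are uncertain.

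The same view of the IgG genes, at the start of the first constant domain, has capitals where the 4 do not agree.
Ighg1: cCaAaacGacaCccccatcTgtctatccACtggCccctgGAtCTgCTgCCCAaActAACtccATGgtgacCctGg
Ighg2b: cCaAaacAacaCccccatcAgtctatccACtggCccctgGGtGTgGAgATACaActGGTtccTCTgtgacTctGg
Ighg2c: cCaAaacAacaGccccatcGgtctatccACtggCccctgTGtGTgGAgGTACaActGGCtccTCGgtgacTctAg
Ighg3: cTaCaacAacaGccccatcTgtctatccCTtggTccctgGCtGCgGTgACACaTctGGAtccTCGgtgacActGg
Ighg2b and Ighg2c were the closest pair, at 85.7% identity over the coding sequence, and the other pairs of IgG genes were 74.1% to 76.3% identical. Gene counts do not separate the membrane and secreted forms of a heavy chain, which share their constant exons.

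Immunoglobulin transcripts were a minor part of these tumors, and in IL-27 and 27pepL→18 the amount was very different between the 2 pools. Library totals were 49844915 to 76620862 counts. All immunoglobulin entries together took 0.000303% of the counts in IL-27 replicate 2, the lowest, and 0.0165% in IL-27 replicate 1, the highest. Summed over the 9 constant genes and scaled with TMM factors, the level was 141 CPM (counts per 1000000 counts of the library) in IL-27 replicate 1 and 125 CPM in 27pepL→18 replicate 1. The other 10 libraries lay between 2.71 and 24.0 CPM, with 5.20 and 14.6 CPM in the 2 pMCS libraries. In tissue measured in bulk, fewer cells of a type and less RNA per cell cannot be told apart. Small counts in the table fall in steps of about 4 (13036 values of 4, against 3645 of 3 and 2084 of 5), so a count of 4 may stand for 1 read pair, and intervals below were computed on counts divided by 4. They cover counting error only.

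**Figure D1:**
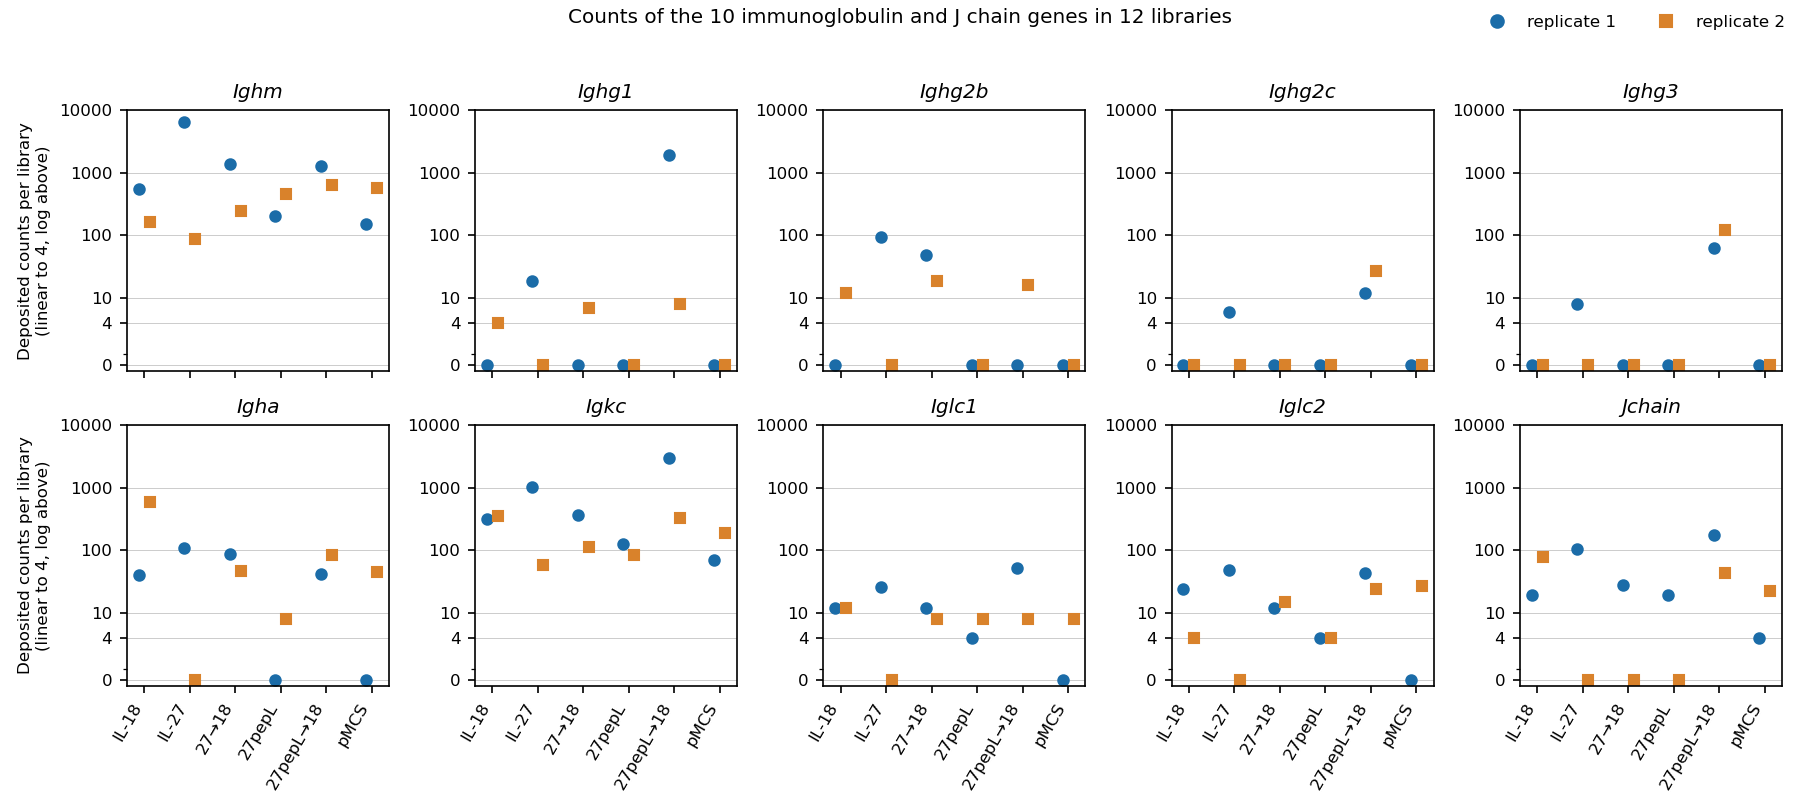
Deposited counts of the 10 genes in each of the 12 libraries (vertical axis linear to 4 and logarithmic above), by group, with replicate 1 as circles and replicate 2 as squares. The high Ighg1 value of 1955 and the high Ighm value of 6523 each stand in 1 library, while both 27pepL→18 libraries hold Ighg3 and both pMCS libraries have 0 counts of every IgG gene.

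Ighm, the chain of IgM, was the most abundant constant gene and was present in every library. It had 6523 and 88 counts in the IL-27 libraries, against 151 and 575 in the pMCS libraries, so the IL-27 libraries held both the highest and the lowest value of the series. The other counts were 556 and 167 in IL-18, 1404 and 245 in 27→18, 204 and 460 in 27pepL, and 1268 and 650 in 27pepL→18. IL-27 replicate 1 alone supplied 53.1% of all Ighm counts. On the scale of TMM CPM, the mean was 59.0 ± 81.1 in IL-27 and 6.75 ± 4.50 in pMCS (SD, n = 2 each). The fitted log2 fold change of Ighm in IL-27 against pMCS was 3.12 (standard error 1.54), with an adjusted p of 1 in edgeR's quasi-likelihood test, and without IL-27 replicate 1 it was -2.04. Over the 12 libraries, the level of Ighm had a Pearson r of 0.90 and a Spearman rho of 0.87 with the summed level of the 16 B cell genes on log2 values. It was about as close to the T cell list (r = 0.84, rho = 0.75), the pan-leukocyte list (r = 0.83, rho = 0.66) and the adipocyte list (r = 0.83, rho = 0.87), and IL-27 replicate 1 lay far above the other libraries in all of these.

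Ighd, the IgD chain that naive B cells co-express with Ighm, is no member of the set but stands beside it in the table. It had 143 and 0 counts in IL-27, against 15 and 96 in the pMCS libraries, and at most 43 in any other library. Ighe, the chain of IgE, and Iglc4 had 0 counts in all 12 libraries. With 3 counts as the limit that a count of 0 allows, Ighe lay under 0.0392 to 0.0602 CPM of the library total.

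Among the IgG genes, Ighg1 was nearly confined to 1 library. It had 1955 and 8 counts in 27pepL→18, against 0 and 0 in the pMCS libraries, and 27pepL→18 replicate 1 supplied 98.1% of all Ighg1 counts in the series. The only other libraries with any were IL-27 replicate 1 with 19, 27→18 replicate 2 with 7 and IL-18 replicate 2 with 4. Taken as a mean of both 27pepL→18 libraries, Ighg1 was 312 times the level of 3 counts per pMCS library, and this ratio rests on replicate 1. Because 3 counts are under the step of about 4, the ratio is no firm lower bound. The p of Ighg1 was 0.0156 with an adjusted p of 1 in edgeR. Ighg1 passed the filter on low counts through 27pepL→18 replicate 1 together with IL-27 replicate 1.

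Ighg3, the chain of IgG3, was more even between the 27pepL→18 pools than Ighg1. It had 62 and 120 counts in the 27pepL→18 libraries, against 0 in each library of 27pepL, 27→18 and pMCS. The remaining library with a count was IL-27 replicate 1, with 8. Ighg3 averaged 1.33 ± 0.175 CPM in 27pepL→18 (SD, n = 2). Ighg3 was thus 21.7 times the level of 3 counts per pMCS library, with the limit given for Ighg1. Its p against pMCS was 0.0179 and against 27→18 was 0.0158, both with an adjusted p of 1 in edgeR. Ighg2c followed the same libraries at lower counts, with 12 and 27 in 27pepL→18, 6 in IL-27 replicate 1 and 0 in the other 9. Both genes reached 10 counts in the 27pepL→18 libraries alone, and they passed the filter on low counts through that group.

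Ighg2b had a different distribution. It had 49 and 19 counts in 27→18 and 96 and 0 counts in IL-27, against 0 and 0 in the pMCS libraries. It was also present in IL-18 replicate 2 with 12 and in 27pepL→18 replicate 2 with 16, and 27pepL→18 replicate 1, the library with most Ighg1, had 0. No IgG gene had a count in either 27pepL library or in either pMCS library.

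Igha, the chain of IgA, was highest in IL-18 replicate 2. It had 41 and 589 counts in IL-18, against 0 and 45 in the pMCS libraries, and that library supplied 56.0% of all Igha counts. Igha was less uneven in the sequential groups, with 87 and 46 counts in 27→18 and 42 and 85 in 27pepL→18. IL-27 had 108 and 0 counts, and 27pepL had 0 and 8. The fitted log2 fold change of Igha in IL-18 against pMCS was 3.34 (standard error 2.19, edgeR adjusted p of 1) and was 0.74 without IL-18 replicate 2. Pigr, the receptor that carries polymeric IgA and IgM across epithelia, had 53 and 638 counts in the IL-18 libraries and 73 and 106 in those of IL-27, against 52 and 93 in the pMCS libraries, so its highest value was in the library with most Igha. Pigr had 0 counts in the 6 libraries of 27→18, 27pepL and 27pepL→18, where the hepatocyte list was also near 0. The part of this in Igha was not tested.

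The leading heavy chain class differed between the 2 pools of IL-18 and of 27pepL→18, and Ighm led in both pools of the other groups. Of the heavy chain constant counts in 27pepL→18 replicate 1, 60.5% belonged to the 4 IgG genes (95% Wilson interval 57.2% to 63.8%), against 18.8% (14.3% to 24.4%) in 27pepL→18 replicate 2. The share was 0 in both pMCS libraries, where the upper ends of the intervals were 8.38% and 2.10%. Igha took 75.5% (68.9% to 80.9%) in IL-18 replicate 2 and 6.41% (3.43% to 11.1%) in IL-18 replicate 1. Ighm led in the other 10 libraries, and it alone made up all 88 heavy chain counts of IL-27 replicate 2. Ighd took 0.358% and 0.440% of heavy chain counts in the 27pepL→18 libraries, against 9.04% and 13.4% in the pMCS libraries. Counted per kilobase of the shortest annotated transcript, the leading class was the same in all 12 libraries.

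**Figure D2:**
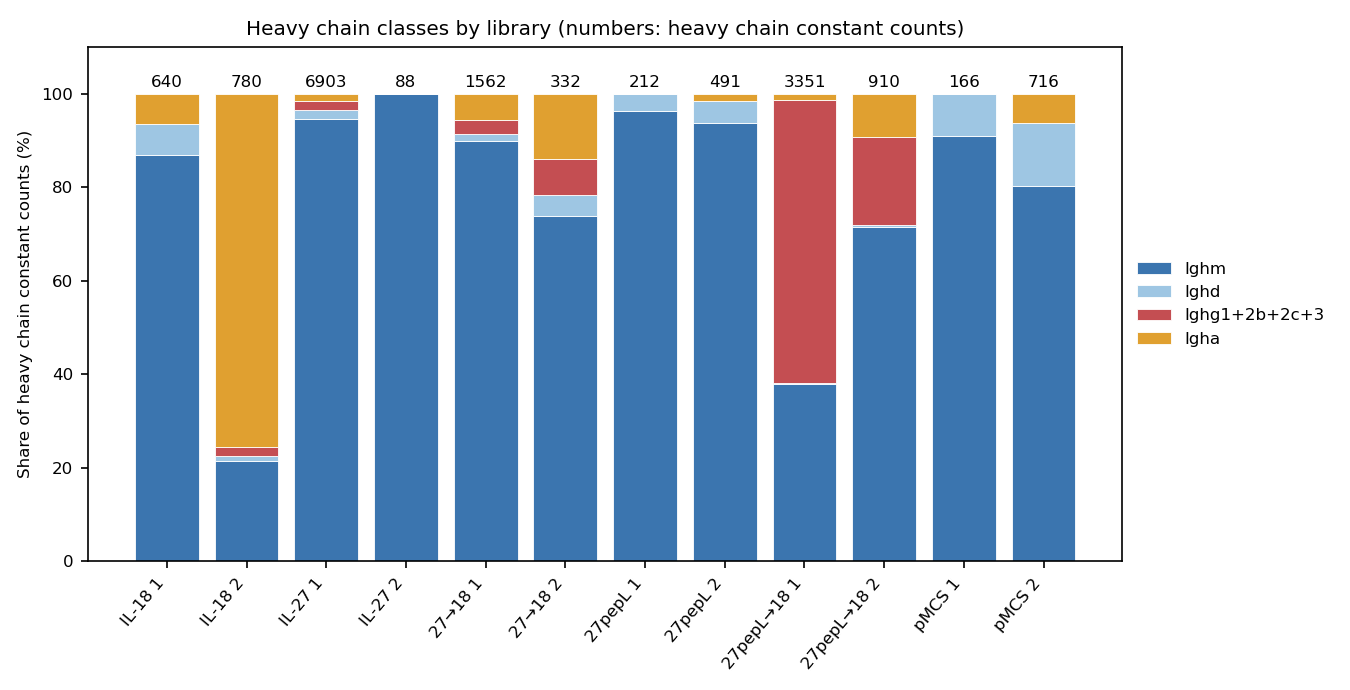
Share of heavy chain constant counts (percent) taken by Ighm, Ighd, the 4 IgG genes together and Igha in each library, with the number of heavy chain counts above each bar. IgG led in 27pepL→18 replicate 1 with 60.5% and IgA in IL-18 replicate 2 with 75.5%, and Ighm led elsewhere.

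Of the light chains, Igkc was found in every library. It had 2990 and 327 counts in 27pepL→18, against 69 and 192 in the pMCS libraries, and both 27pepL→18 libraries were above both pMCS libraries. The counts were 316 and 349 in IL-18, 1047 and 58 in IL-27, 361 and 115 in 27→18, and 127 and 85 in 27pepL. Igkc thus had its highest value in the library rich in Ighg1, and its next highest in the library rich in Ighm. The log2 fold change of Igkc in 27pepL→18 against pMCS was 3.65 (standard error 1.39), with an unadjusted p of 0.0263 and an adjusted p of 1 in edgeR, and it was 0.68 without 27pepL→18 replicate 1. Against 27pepL, the p of Igkc was 0.0123 with an adjusted p of 1.

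The lambda genes were low throughout. Iglc1 had 52 and 8 counts in 27pepL→18 and 26 and 0 in IL-27, against 0 and 8 in the pMCS libraries, and 4 to 12 in the remaining 6 libraries. Iglc2 had 44 and 24 counts in 27pepL→18 and 49 and 0 in IL-27, against 0 and 27 in the pMCS libraries, and 4 to 24 in the others. Together with Iglc3, which had 74 counts at most, lambda made up 3.36% of light chain counts in 27pepL→18 replicate 1 (95% Wilson interval 2.30% to 4.88%) and 27.2% (16.1% to 42.8%) in 27→18 replicate 2, the lowest and highest shares of the libraries with lambda counts. In pMCS the shares were 5.48% (0.988% to 25.8%) and 26.4% (17.0% to 38.0%).

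Per kilobase of the shortest transcript, heavy chain constant counts exceeded light chain counts 2.13 times in IL-27 replicate 1, the library rich in Ighm, and were 0.477 times the light chain counts in 27pepL→18 replicate 1, the library rich in Ighg1. The other libraries ranged from 0.507 to 1.69, with 0.865 and 1.06 in pMCS.

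Jchain, which antibody-secreting cells make, had 175 and 43 counts in 27pepL→18, against 4 and 22 in the pMCS libraries. It had 19 and 78 in IL-18, 105 and 0 in IL-27, 28 and 0 in 27→18, and 19 and 0 in 27pepL. Both 27pepL→18 libraries were above both pMCS libraries, and the second highest library on the CPM scale was IL-27 replicate 1. The log2 fold change in 27pepL→18 against pMCS was 3.02 (standard error 2.36), with an adjusted p of 1 in edgeR, and it was 1.12 without 27pepL→18 replicate 1. In IL-18 replicate 2, the library led by Igha, Jchain stood at 0.973 CPM, above the other IL-18 library at 0.308 CPM.

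Variable segments gave an account of the pools at the level of single segments. Of 185 heavy, 160 kappa and 3 lambda variable entries, 29, 43 and 2 had a count in any library, and 25 of the 29 heavy entries were seen in 1 library each. Of 130 values above 0, 42.3% were 3 or 4, the size of 1 step, so a segment seen at this level rests on very few reads. The leading kappa segment had a different name in every library that had more than 8 kappa counts. Igkv3-2 took 123 of 223 kappa variable counts (55.2%) in 27pepL→18 replicate 1, the library with most Ighg1 and Igkc. In 27pepL→18 replicate 2, Igkv6-15 took 50 of 99, and Igkv3-2 had 6 counts there. In IL-27 replicate 1 Igkv6-14 had 122 of 404 and Igkv6-17 came next. In IL-18 replicate 2, Igkv1-110 had 60 of 156, and in IL-18 replicate 1 Igkv14-126 had 27 of 66. Igkv4-68 led 27→18 replicate 1 with 30 counts, Igkv17-121 led IL-27 replicate 2 with 11 and Igkv10-96 led pMCS replicate 2 with 20. Neither 27pepL library had any kappa variable count, although they had 127 and 85 counts of Igkc.

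The ends of the leading segments show how far the names can be told apart. Each line holds the last 75 coding bases. For the 3 members of the Igkv6 family, capitals mark the bases that are not the same in all 3.
Igkv6-14: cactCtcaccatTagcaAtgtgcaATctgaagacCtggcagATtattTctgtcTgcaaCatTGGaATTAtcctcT
Igkv6-15: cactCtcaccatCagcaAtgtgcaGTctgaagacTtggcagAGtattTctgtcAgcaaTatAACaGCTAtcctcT
Igkv6-17: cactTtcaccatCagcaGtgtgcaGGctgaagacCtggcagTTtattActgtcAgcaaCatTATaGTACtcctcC
These segments lie at chr6:70434952-70435026 (minus strand), chr6:70406469-70406543 (minus) and chr6:70371919-70371993 (plus). They were 90.5% to 92.2% identical over the whole coding sequence, and 19 of these 75 bases were not shared by all. Igkv6-14 and Igkv6-17 led together in IL-27 replicate 1 and Igkv6-15 in 27pepL→18 replicate 2, and reads could have been divided between them. The leading segments of 27pepL→18 replicate 1 and IL-18 replicate 2 were less alike.
Igkv3-2: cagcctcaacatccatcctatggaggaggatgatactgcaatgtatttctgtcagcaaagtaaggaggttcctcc
Igkv1-110: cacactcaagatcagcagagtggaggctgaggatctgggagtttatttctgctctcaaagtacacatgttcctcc
Igkv3-2 is at chr6:70698993-70699067 and Igkv1-110 at chr6:68271193-68271267, both on the plus strand. They were 66.8% identical to each other and at most 64.8% identical to any of the 3 Igkv6 segments.

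Heavy chain segments were sparser. Ighv1-55 had 55 of 90 heavy variable counts in IL-27 replicate 1 and none in any other library. Ighv1-76 had 25 of 65 in IL-18 replicate 2, the library rich in Igha, and none elsewhere. Their ends are printed because each stood for 1 library.
Ighv1-55: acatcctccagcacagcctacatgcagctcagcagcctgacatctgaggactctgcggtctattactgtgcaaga
Ighv1-76: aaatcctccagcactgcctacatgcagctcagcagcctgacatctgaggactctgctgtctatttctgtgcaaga
They are at chr12:115208095-115208169 and chr12:115847881-115847955, both on the minus strand, and were 87.2% identical over the coding sequence. In 27pepL→18 replicate 1, which had 2029 IgG counts, the heavy variable entries summed to 30, led by Ighv1-61 with 12 and Ighv11-2 with 10. The lambda segment Iglv1 had 47 counts in 27pepL→18 replicate 1, 46 in 27→18 replicate 1 and 0 to 19 in the others, with 2 and 3 in pMCS.

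Few segments were shared by the 2 pools of a group. In 27pepL→18 the pools shared 2 kappa segments, Igkv3-2 and Igkv14-126, out of 11 in replicate 1 (18.2%) and 7 in replicate 2 (28.6%). In IL-27 they shared Igkv6-14 and Igkv6-32, out of 20 (10%) and 4 (50%). The IL-18 pools shared 1 of 10 and 17, and 27→18, 27pepL and pMCS shared none. Among heavy segments, Ighv11-2 in IL-18 was the only one with counts in both pools of a group.

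**Figure D3:**
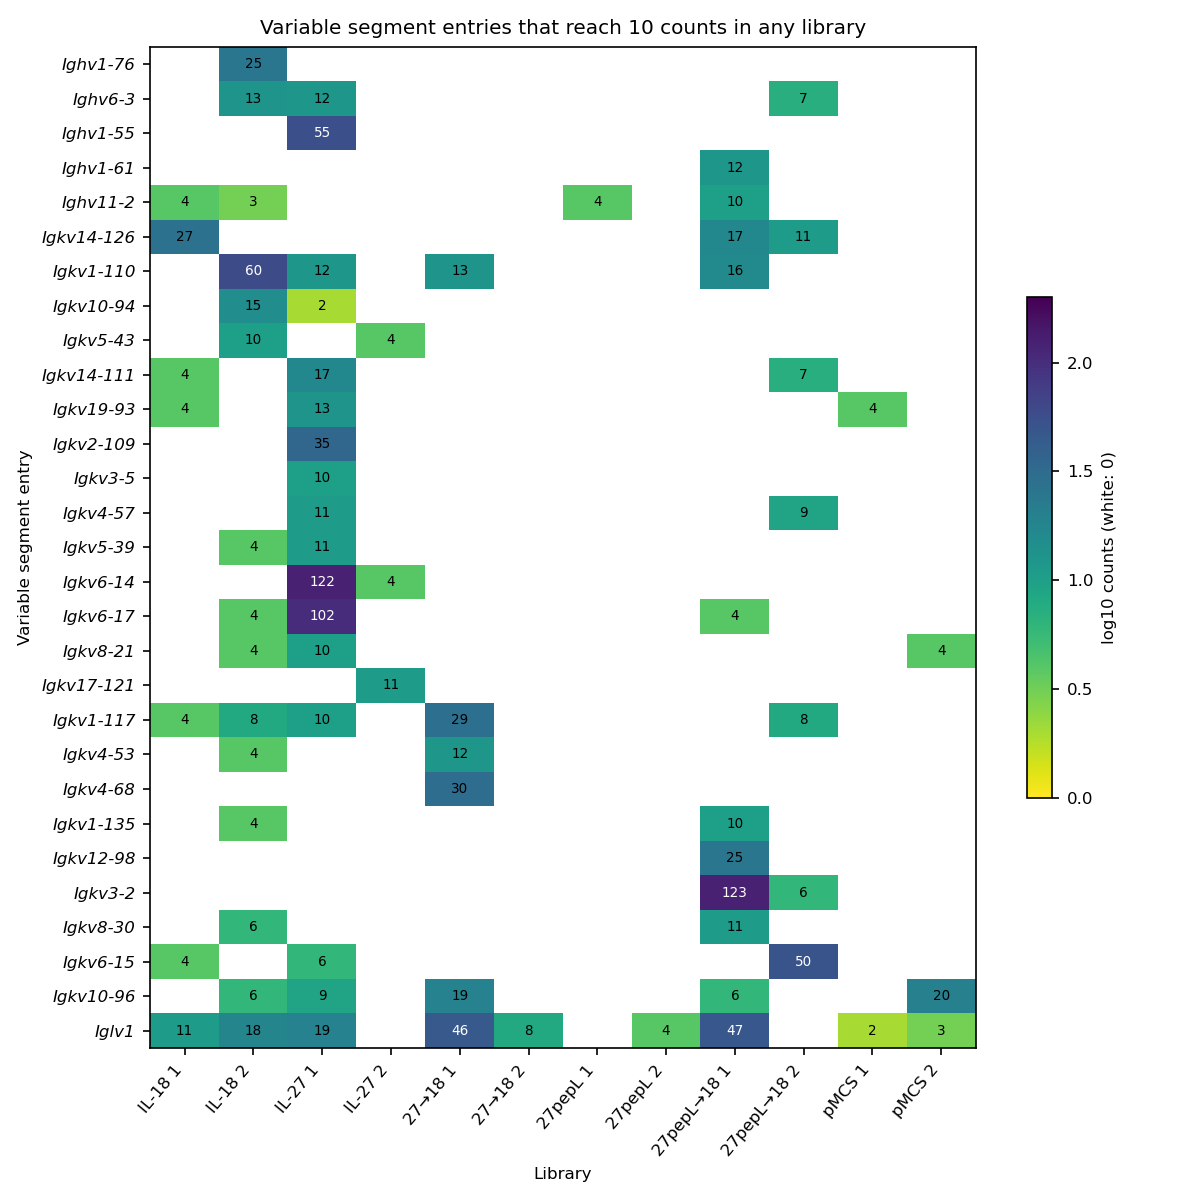
Counts of the 29 heavy, kappa and lambda variable segments that reached 10 counts in any library, with 1 column per library, colors on a log10 scale and white for 0. Each immunoglobulin-rich library has its own leading segment, such as Igkv3-2 with 123 counts in 27pepL→18 replicate 1 and Igkv6-14 with 122 in IL-27 replicate 1.

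Each treatment was next compared with pMCS for all 10 genes at once. All 10 passed the filter on low counts and 20417 entries were tested, and a gene was called at an edgeR adjusted p under 0.05. No member was called in any of the 12 comparisons. In 27pepL→18 against pMCS, 10 of 10 genes had a higher mean, 3 had an unadjusted p under 0.05 (Ighg1, Ighg3 and Igkc), against 3.29% of all tested entries, and 0.23% of all tested entries were called. Ighg2c and Ighg3 were tested only because of their counts in 27pepL→18. Ighg1 reached 10 counts in 27pepL→18 replicate 1 and IL-27 replicate 1 alone, so it too passed the filter through 27pepL→18. The direction, overlap and p-values of Ighg1, Ighg2c and Ighg3 therefore add no support. Both 27pepL→18 libraries lay above both pMCS libraries for 6 of the 10, against 14.1% of all tested entries. Over the 6 members with a fitted fold change, which leave out the IgG genes, the median log2 fold change was 2.10. It was -0.03 over all tested entries.

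In IL-27 against pMCS, 10 of 10 genes had a higher mean, and 0 had an unadjusted p under 0.05 in the quasi-likelihood test, against 4.56% of all entries. At that threshold 2 passed in DESeq2 (Ighm and Ighg2b) and 1 in the edgeR exact test (Ighm). The share of all entries at that threshold is not given for DESeq2 and the exact test, so these counts add no support. The share of all entries called was 0%, and both IL-27 libraries lay above both pMCS libraries for 0 of the 10 genes, against 10.7% of all entries. The higher means came from IL-27 replicate 1, in which all 10 genes were above IL-27 replicate 2. In IL-18 against pMCS, 6 of the 8 genes with more than 3 counts in either group were higher, 0 had an unadjusted p under 0.05 with edgeR, DESeq2 or edgeR's exact test, 0% of entries were called and 2 of 10 genes did not overlap upward, against 19.3% of entries. In 27→18 against pMCS, 6 of 8 were higher, again with 0 at an unadjusted p under 0.05 in these tools. There 0.235% of entries were called, and 3 of 10 genes did not overlap upward, against 12.3% of entries. In 27pepL against pMCS, 1 of 6 was higher and 5 were lower, with 0 at an unadjusted p under 0.05 in these tools and 0.255% of entries called. There 0 of 10 genes were without overlap upward, against 13.5% of entries, and 0 of 10 downward, against 14.6% of entries.

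**Figure D4:**
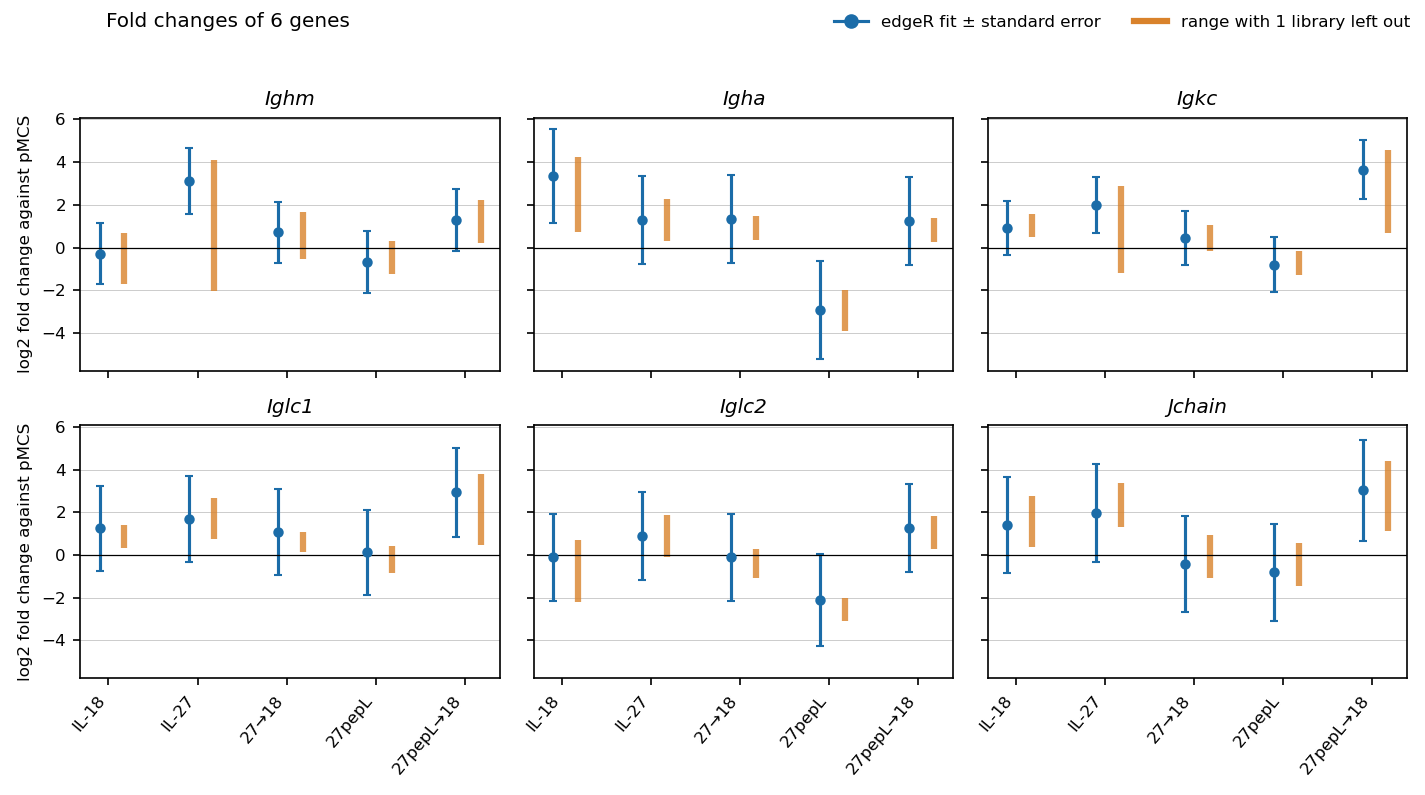
Log2 fold change against pMCS of the 6 genes with counts in pMCS, for each treatment (circles with bars, edgeR estimate ± standard error), beside the range of that estimate when 1 of the libraries was left out (orange bars). The range for Ighm in IL-27 runs from -2.04 to 4.11, and that for Igkc in 27pepL→18 from 0.68 to 4.56.

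Libraries with IL-18 after 27pepL were also set against those with 27pepL alone. In 27pepL→18 against 27pepL, 10 of 10 genes were higher and both 27pepL→18 libraries lay above both 27pepL libraries for 9 of them, against 10.5% of all entries. The 27pepL libraries had 0 counts of all 4 IgG genes, and Ighg3 in 27pepL→18 was 33.5 times the level of 3 counts per 27pepL library. That level is under the step of about 4, so the ratio is no firm lower bound. Here too Ighg1, Ighg2c and Ighg3 passed the filter on low counts through 27pepL→18, Ighg1 together with IL-27 replicate 1. They add no support to the counts of this comparison. The gene with overlap was Ighg2b, which had 0 and 16 counts in 27pepL→18 and 0 and 0 in 27pepL. Of the 10, 3 (Ighg1, Ighg3 and Igkc) had an unadjusted p under 0.05, against 1.15% of all entries, none was called, and 0% of all entries were called. In 27→18 against IL-27, 1 of 10 genes was higher and 9 were lower, with 0 at an unadjusted p under 0.05 in edgeR, DESeq2 and edgeR's exact test and 0.245% of entries called. Both 27→18 libraries lay below both IL-27 libraries for 0 of the 10 genes, against 9.81% of all entries. The summed level of the 9 constant genes was 24.0 and 8.75 CPM in 27→18, against 141 and 2.71 CPM in IL-27.

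The plasmids were compared with each other in the same way. In 27pepL against IL-27, 10 of 10 genes were lower, 2 of them with an unadjusted p under 0.05, against 5.86% of all entries, and the smallest was that of Ighm (unadjusted p of 0.0397, adjusted p of 0.819 in edgeR), with 0.245% of entries called. An unadjusted p under 0.05 was also found for Ighm, Igkc, Ighg2b and Igha in DESeq2 and for Ighm and Igkc in the edgeR exact test. The share of all entries at that threshold is not given for these tools. Both 27pepL libraries lay below both IL-27 libraries for 0 of the 10 genes, against 13.6% of all entries. In 27pepL→18 against 27→18, 8 of 10 genes were higher, with 0% of entries called. There 3 (Ighg1, Ighg3 and Igkc) had an unadjusted p under 0.05 in edgeR, against 1.74% of all entries. Ighg1, Ighg2c and Ighg3 passed the filter on low counts through 27pepL→18, so they add no support to these counts.

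The test for any difference among the 6 groups gave its smallest p to Ighg1 (unadjusted p of 0.0104, adjusted p of 0.834 in edgeR). In this test 0.269% of entries were called, and Igkc had an adjusted p of 0.0566 in DESeq2. Of the members, 3 (Ighg1, Ighg3 and Igkc) had an unadjusted p under 0.05 in edgeR, against 3.36% of all entries. However, 98.1% of all Ighg1 counts came from 1 library. Ighg1 and Ighg3 passed the filter on low counts through the group where they were highest, Ighg1 together with IL-27 replicate 1. They add no support to this count. No gene of the 10 was called for a different effect of IL-18 after IL-27 than after pMCS (smallest unadjusted p of 0.198, 0.147% of entries called), and none for a different effect after 27pepL than after pMCS (smallest unadjusted p of 0.0851, 0% of entries called), both for Igkc in edgeR. At an unadjusted p under 0.05, 0 genes passed in either of these comparisons in edgeR, against 3.74% and 2.37% of all entries. In DESeq2 1 gene passed (Igkc, after 27pepL), and the share of all entries is not given for that tool.

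Except in 27pepL, the 2 libraries of a group lay further apart in these genes, by the median, than in all tested entries. The median difference between replicates of the 10 genes on the log2 CPM scale was 4.47 in IL-27, against 0.74 for all tested entries, and 4.18% of entries were beyond the value of the members. In 27pepL→18 it was 2.14 against 0.56, and in IL-18 1.47 against 0.38. In 27pepL the median was 0.34 against 0.62, but the IgG genes had no counts in either library and pull this median down. Between the 27pepL libraries, Ighm differed 1.88-fold and Igkc 1.79-fold, and Jchain differed by 3.29 on the log2 scale. In pMCS, replicate 2 was above replicate 1 in every member that differed, with a median difference of 1.24 against 0.50.

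Of the markers of antibody-secreting cells, Mzb1 and Tnfrsf17 were at or near 0. Mzb1, an endoplasmic reticulum chaperone of plasma cells and marginal zone B cells, had 8 counts in IL-27 replicate 1, 2 in IL-18 replicate 2 and 0 in the other 10 libraries. Tnfrsf17, the receptor BCMA that plasma cells need to survive, had 16 counts in IL-27 replicate 1, 8 in 27→18 replicate 2, 4 in 27pepL→18 replicate 2 and 0 in the other 9, among them 27pepL→18 replicate 1 and both pMCS libraries. Some other genes of the list were abundant in all libraries and are made by many other cells. Sdc1, the proteoglycan that is also found on epithelial cells, had 3141 to 12143 counts, Xbp1, the secretory transcription factor, had 311 to 9316, and Prdm1, the repressor BLIMP-1, had 474 to 1496. The summed plasma cell list of 12 genes was 192 and 247 CPM in 27pepL→18 and 355 and 255 CPM in IL-27, against 138 and 185 CPM in the pMCS libraries. It was 214 and 261 CPM in IL-18, 180 and 287 CPM in 27→18 and 184 and 263 CPM in 27pepL. Over the 12 libraries, its Pearson r with the summed level of the 9 constant genes was 0.25 on log2 values (rho = 0.11). Of the 12 genes, 10 had 10 counts or more in IL-27 replicate 1 and 9 did in 27pepL→18 replicate 1, against 7 and 10 in the pMCS libraries. Of the 10 tested genes none was called in any comparison. Against pMCS, 2 had an unadjusted p under 0.05 upward in IL-27 (4.56% of all entries in either direction) and 1 in 27→18 (2.40%), in edgeR. The label of plasma cells thus rests here mainly on the antibody genes and Jchain, with Mzb1 and Tnfrsf17 at or near 0. List genes other than these, Sdc1, Xbp1 and Prdm1 are not given singly.

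B cell surface genes were present at low counts. Cd79a, a signalling chain of the B cell receptor, had 84 and 7 counts in IL-27 and 47 and 51 in 27pepL→18, against 28 and 107 in the pMCS libraries. Ms4a1, which encodes CD20, had 73 and 0 counts in IL-27 and 12 and 4 in 27pepL→18, against 0 and 12 in the pMCS libraries. The summed B cell list of 16 genes was 115 CPM in IL-27 replicate 1 and between 9.28 and 25.5 CPM in the other libraries, with 13.5 and 23.5 CPM in pMCS. In 27pepL→18 replicate 1, where Ighg1 and Igkc were high, the list stood at 16.8 CPM. All 16 genes were tested and none was called in any comparison, and Ciita, the activator of class II genes, had the smallest p over the groups (unadjusted p of 0.0151, adjusted p of 0.977 in edgeR). Vpreb1 was the one surrogate light chain or recombination gene of 7 that could be tested, and it was not called.

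Genes of the paths around antibody production were counted from fixed lists. None of the 14 secretory genes tested was called in any comparison, with Dnajb9 (a chaperone of the unfolded protein response), Txndc5 and Ssr4 having the smallest p-values, and the median log2 fold change of the list in 27pepL→18 against pMCS was 0.09. Of the germinal center and class switch list, 9 of 10 genes were tested and none was called. Of that list Mef2b, Fas and Batf had the smallest p-values over the groups, 0.0452, 0.102 and 0.126.

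Of 13 tested genes that attract or support B cells, none was called. Ccl21a, which draws lymphocytes into lymph nodes, had the smallest p over the groups (unadjusted p of 0.00847, adjusted p of 0.759 in edgeR). It had 714 and 21 counts in IL-18 and 889 and 192 in 27→18. Both 27pepL→18 libraries had 0, against 64 and 909 in the pMCS libraries. The counts of Ccl21a in IL-27 and 27pepL are not given here, so the 0 is not shown to be particular to 27pepL→18. Of the 13 genes, 0 had an unadjusted p under 0.05 in 27pepL→18 against 27pepL in edgeR, against 1.15% of all entries. Ccr7, the receptor for Ccl21a, had 3289 and 110 counts in IL-27, against 37 and 266 in the pMCS libraries. Cxcr5, the receptor of B cell follicles, had 92 and 7 in IL-27, against 11 and 31 in the pMCS libraries. For the 10 tested receptors and carriers of antibody none was called, and 7 of them had an unadjusted p under 0.05 upward in IL-27 against pMCS, as did 4 of 6 pan-leukocyte genes, while 4.56% of all entries had such a p in either direction. Fcgr4, a receptor for IgG2 classes, had 5505 and 134 counts in IL-27, against 106 and 227 in the pMCS libraries, and Fcgr2b, the inhibitory IgG receptor, had 14978 and 1708, against 652 and 2405.

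Markers of other cells moved with some libraries. IL-27 replicate 1, which was rich in Ighm, also had the highest adipocyte list (10259 CPM for 7 genes, against 46.1 CPM in IL-27 replicate 2 and 47.7 and 1054 CPM in pMCS), the highest T cell list (168 CPM for 12 genes, against 8.39 CPM in replicate 2 and 14.6 and 17.0 CPM in pMCS) and the highest pan-leukocyte list. Adipoq, a fat cell hormone, had 42913 counts there, and Fabp4, the fat cell lipid carrier, had 194986. In 27pepL→18 replicate 1, which was rich in Ighg1, the adipocyte list was 98.3 CPM and the T cell list 21.1 CPM. The part of these tissues in the immunoglobulin counts was not tested. The hepatocyte list of 7 genes was 192 to 308 CPM in IL-18, IL-27 and pMCS and 1.43 to 5.29 CPM in 27→18, 27pepL and 27pepL→18, and 6 of the 7 genes were called lower in each of these 3 groups against pMCS. Alb, the serum protein of hepatocytes, had 0 counts in all 6 libraries of those groups. Group and this split cannot be told apart where those 3 groups are set against pMCS or IL-27, whereas 27pepL→18, 27pepL and 27→18 stand on the same side of it. The skeletal muscle list was highest in 27→18, at 164 and 55.4 CPM, against 5.63 and 4.53 CPM in the pMCS libraries, with Tnnt3 and Mylpf called over the 6 groups (adjusted p = 0.0263 and 0.0336 in edgeR), and erythroid, lymph node stroma and keratinocyte lists had no called gene. The lymph node stroma list was nevertheless uneven, at 16.4 CPM in IL-27 replicate 1, 12.3 CPM in IL-18 replicate 1, 12.2 CPM in 27→18 replicate 1 and 21.6 CPM in pMCS replicate 2, and 0.318 to 3.85 CPM in the other 8 libraries. Its correlation with Ighm was r = 0.61 (rho = 0.67), and its part in the Ighm counts was not tested.

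**Figure D5:**
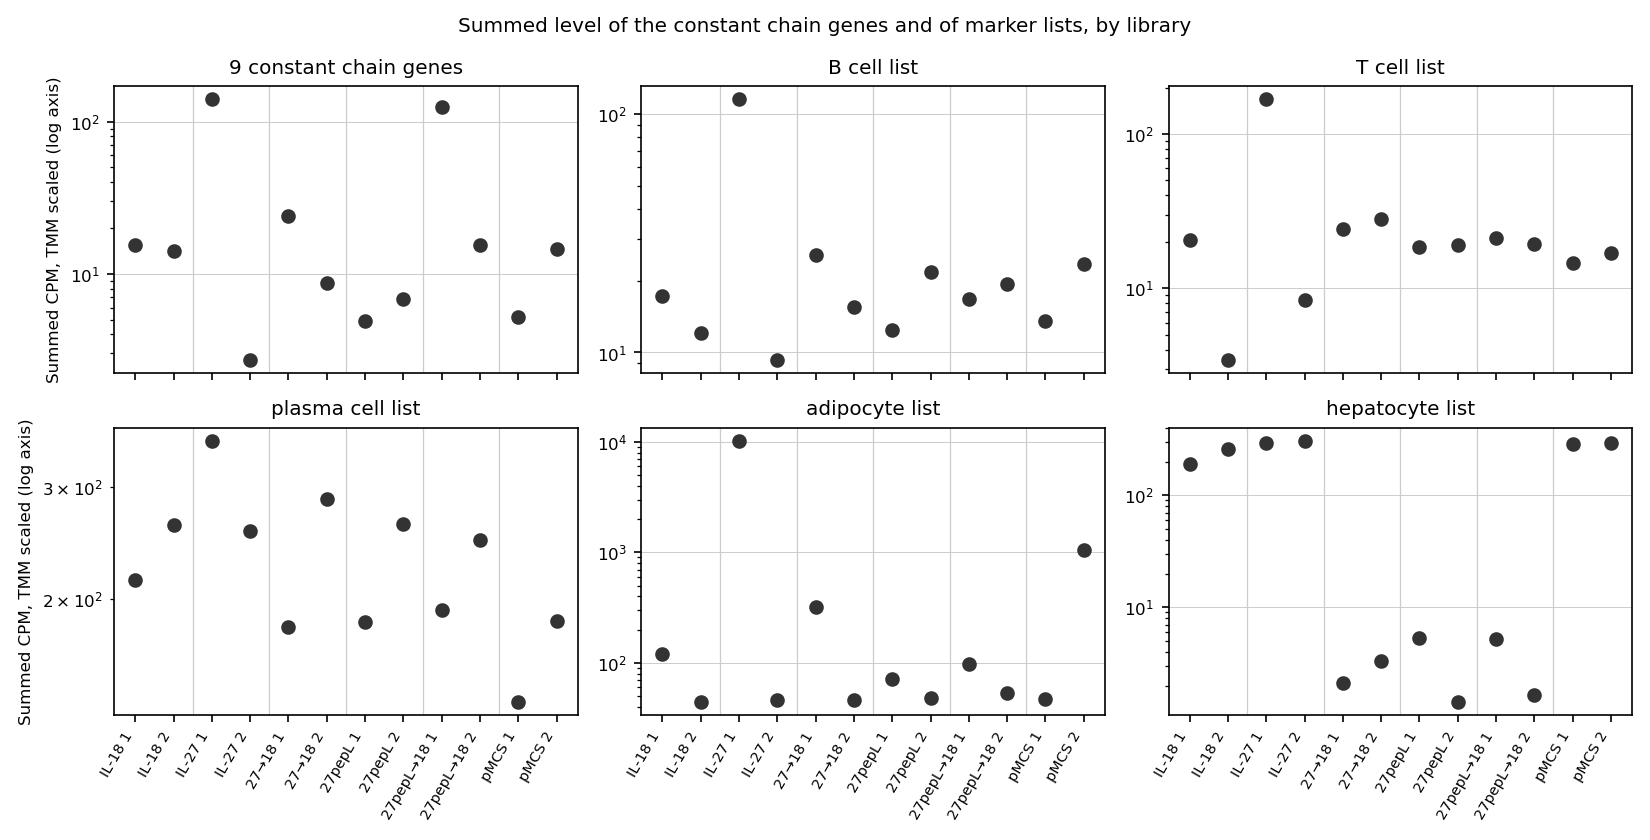
Summed TMM-scaled CPM (log axis) of the 9 constant chain genes and of 5 marker lists, with 1 point per library and vertical lines between groups. IL-27 replicate 1 is highest for the constant genes at 141 CPM and for the B cell, T cell, plasma cell and adipocyte lists, whereas 27pepL→18 replicate 1, at 125 CPM for the constant genes, is near the other libraries in those lists.

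The genes whose pattern was most like Igkc, among tested genes with an average log2 CPM of at least 0 and outside the immunoglobulin entries, were Rflnb, Ypel3, Plvap, Armc5 and Rasip1, with Pearson r of 0.82 to 0.85 over the 12 libraries. For Jchain they were Fam43a, Pcdh1, Rflnb, Stk4 and Rasip1, with r of 0.81 to 0.86. Plvap is an endothelial membrane protein, and Rasip1 is a regulator of endothelial cells. The other genes named are not described here, and a part of endothelium in these counts was not tested. Among the members themselves, Ighg2c and Ighg3 were the most alike (r = 0.99), since they shared 9 libraries at 0, and Igkc was close to Iglc1 (r = 0.88) and to Jchain (r = 0.87). These are descriptions over libraries that share 1 count scale and 2 libraries with very high values.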

How the data were processed

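The 10 genes, the gene lists and the tests were chosen with earlier results of these data known. RNA was prepared as stranded TruSeq libraries (poly(A) by the methods, total RNA by the labels), read paired-end on a NovaSeq, and per the sources trimmed with Cutadapt, checked with FastQC 0.11.3, aligned with HISAT2, quantified with StringTie and tested with edgeR. Neither the build of the genome nor the conversion of StringTie output to counts is stated there. The authors deposited whole-number counts per gene with no scaling (12 columns, all used). The steps of about 4 in low values leave counting intervals on them too narrow. All 55450 identifiers matched GENCODE M21 (GRCm38), which gave names, coordinates, lengths and sequences.

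Counts were fitted in R 4.3.3 with edgeR 4.0.16 (quasi-likelihood, filterByExpr by group, TMM, 1 term per group, all 12 libraries, Benjamini-Hochberg adjustment over 20417 entries). DESeq2 1.42.0, edgeR's exact test, RLE scaling, no filter, a replicate block, the compared groups alone and each library left out were alternatives, and counts divided by 4 and rounded up were added after seeing the data. The fit was tested on simulated data. Named genes were the 10 members, other immunoglobulin constant entries, the leading variable entry per library, the 3 genes with the smallest p per list over the groups, 8 defining markers and the 5 genes most like Igkc and like Jchain. Other genes with values were chosen after their values were seen. Some genes that this rule names are not reported here. No fold change is given where a group had at most 3 counts in every library, and a ratio to 3 counts per library is given in its place. This ratio is no firm lower bound, since 3 counts are under the step of about 4.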

Additional observations from a re-analysis of the deposited data

How the results depend on the processing

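No member was called in 216 of 224 recounts under the alternatives. The other 8 came from leaving out the filter on low counts, which called 4 members in IL-27 against pMCS, 3 in 27pepL→18 against pMCS, 1 in 27→18 against IL-27, 3 in 27pepL→18 against 27pepL, 5 in 27pepL against IL-27, 2 in 27pepL→18 against 27→18, 7 over the 6 groups and 1 for the effect of IL-18 after 27pepL against after pMCS. Over all entries that setting called 817, 366, 738, 105, 977, 178, 1895 and 238 in the same order, against 0, 47, 50, 0, 50, 0, 55 and 0 with the filter. It tested every entry with a count, more than the 20417 that passed the filter, so these calls are not shares of 20417. The cause of the added calls was not tested.

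Of 541 fold changes recomputed against pMCS, 519 kept direction and call, 3 passed only without the filter (Ighm and Igkc in IL-27, Igkc in 27pepL→18) and 19 turned. With the replicate number as a block the turned values were -0.36 for Jchain in IL-27, -0.011 for Igkc in 27→18 and -0.060 for Iglc1 in 27pepL. The block called no member. The correlations of same-numbered deviations between groups were -0.282 to 0.343, with 6 of 15 group pairs over 0.1. With 1 difference per group, these values do not decide whether the numbers pair the samples. With 1 library left out, Ighm ranged from -1.69 to 0.66 in IL-18, from -2.04 to 4.11 in IL-27, from -0.53 to 1.67 in 27→18 and from -1.22 to 0.29 in 27pepL. Igkc ranged from -1.19 to 2.90 in IL-27 and from -0.17 to 1.07 in 27→18. Iglc1 ranged from -0.82 to 0.43 in 27pepL. Iglc2 ranged from -2.20 to 0.71 in IL-18, from -0.10 to 1.87 in IL-27 and from -1.09 to 0.27 in 27→18. Jchain ranged from -1.07 to 0.94 in 27→18 and from -1.47 to 0.54 in 27pepL. Where this left 1 library in a group, it was taken to vary like the other groups. Counts per kilobase moved 9 of 48 class shares beyond their interval and changed no leading class, and other library totals moved 4 of 24 summed levels by more than the spread between replicates.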
